A study of Rattus norvegicus with 12 samples.

Results

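The C/EBP and GADD45 stress-response genes described here are the 4 C/EBP genes *Cebpa*, *Cebpb*, *Cebpd* and *Cebpg*, the 3 GADD45 genes *Gadd45a*, *Gadd45b* and *Gadd45g*, and *Ddit3*. They were chosen by gene symbol, and all 8 were found among the 17337 genes of the count table. Their RNA was measured by sequencing of the striatum of 12 wild-type male Sprague–Dawley rats, 1 library per rat. The labels give all 12 rats 16 days of methamphetamine (MA) self-administration. They fell into MA12 (4 rats after 12 h of abstinence), MA24 (4 rats after 24 h of abstinence) and a group that the labels call non-addicted (4 rats, with no abstinence time given). The rats were housed under a 12-h light–dark cycle. If sessions ended at the same time of day, MA12 and MA24 rats were sampled at different times of day. Time of day and hours of abstinence cannot be told apart in MA24 vs. MA12. By the labels every group had taken MA, so none of these comparisons would be with a drug-free animal, and no library labelled as saline was analysed here. The paper's text names saline, MA, MA12 and MA24 groups and describes no non-addicted group. What the non-addicted rats were given therefore rests on the labels alone. The paper reports that RNA of all groups was extracted in a single batch. The rat numbers end in N for 4 of 4 MA24 rats, 2 of 4 MA12 rats and 0 of 4 non-addicted rats, and what N stands for is not given.

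C/EBP proteins are basic leucine zipper transcription factors that bind DNA as dimers with each other or with related factors. *Cebpb* and *Cebpd* encode members known for their fast induction by inflammatory signals, hormones and synaptic activity, *Cebpa* encodes a factor best known from fat, liver and myeloid cells, and *Cebpg* encodes a short member without a transactivation domain that works through its partners, ATF4 among them. *Ddit3* encodes CHOP, a C/EBP relative that is induced by ATF4 when the integrated stress response is on and that binds other C/EBP proteins. The 3 GADD45 proteins are small acidic stress sensors without enzyme activity, which bind MAP3K4 upstream of p38 and JNK, bind PCNA and the cell cycle kinase CDK1, and take part in active DNA demethylation. In the brain, *Gadd45b* and *Gadd45g* are known as activity-induced genes.

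The promoters of *Gadd45g*, its paralogue *Gadd45b* and *Cebpb* are shown because *Gadd45g* and *Cebpb* carry the largest differences between MA24 and MA12, and *Gadd45b* gives a relative of *Gadd45g* to read it against. Each is the 250 bases before the annotated start, 5′ to 3′ on the strand of the gene, from RefSeq (build GRCr8, which is not the rn6 build of the counts). They lie at chr17:13530352-13530601 (minus strand, *Gadd45g*), chr7:9430719-9430968 (minus strand, *Gadd45b*) and chr3:176816755-176817004 (plus strand, *Cebpb*). Capitals mark matches, on either strand, to CACGTG (an E-box, the element bound by clock factors and MYC family factors), TGACG (a partial site of CREB and ATF factors, the full site being TGACGTCA), CCAAT and TATAAA.
Gadd45g: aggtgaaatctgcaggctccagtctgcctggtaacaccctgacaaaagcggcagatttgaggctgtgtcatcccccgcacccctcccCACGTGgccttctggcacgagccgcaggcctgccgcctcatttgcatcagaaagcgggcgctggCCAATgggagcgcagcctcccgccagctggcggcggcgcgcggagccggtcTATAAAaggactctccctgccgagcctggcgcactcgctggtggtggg
Gadd45b: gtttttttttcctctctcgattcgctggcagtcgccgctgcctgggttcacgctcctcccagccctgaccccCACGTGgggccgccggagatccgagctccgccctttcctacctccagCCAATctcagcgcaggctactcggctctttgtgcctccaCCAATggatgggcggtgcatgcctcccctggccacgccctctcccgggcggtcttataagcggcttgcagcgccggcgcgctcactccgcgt
Cebpb: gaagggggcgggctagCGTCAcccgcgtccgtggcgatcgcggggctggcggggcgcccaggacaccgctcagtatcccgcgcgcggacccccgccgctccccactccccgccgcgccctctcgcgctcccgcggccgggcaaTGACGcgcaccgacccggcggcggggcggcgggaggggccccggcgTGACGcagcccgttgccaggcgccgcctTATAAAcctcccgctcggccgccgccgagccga

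The *Gadd45g* promoter held 1 E-box, starting 163 bases before the gene start, 1 CCAAT at 99 bases and 1 TATAAA at 48 bases. The *Gadd45b* promoter also held 1 E-box, at 178 bases, with 2 CCAAT matches and no TATAAA. The *Cebpb* promoter held 3 TGACG matches, at 234, 107 and 61 bases, the first of them on the other strand, and 1 TATAAA at 33 bases. Of 33469 RefSeq promoters cut to the same 250 bases, 5.59% held CACGTG, 18.2% TGACG, 34% CCAAT, 12.9% TATAAA and 1.59% the full TGACGTCA. A promoter was given for 7 of the 8 genes, all but *Cebpd*. Among the other 4, *Gadd45a* held 1 TGACG and 1 CCAAT, *Ddit3* 1 CCAAT, *Cebpg* 2 CCAAT and *Cebpa* 1 TATAAA, and none of the 7 held the full TGACGTCA. *Cebpa* and *Cebpg* are neighbours on chromosome 1, with 1 annotated gene and 0 protein-coding genes between them. These matches describe letters in a window and were not linked to the counts by any test.

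Between 17908962 and 23850284 reads per library were counted on genes. Levels are CPM, counts scaled to a common library size, after TMM scaling, which also corrects for library composition and not for gene length, so levels are compared between rats and never between genes. All 13 markers of striatal projection neurons were detected. In bulk tissue, a lower level from fewer cells of a type cannot be told apart from less RNA per cell. Markers of 4 other cell types moved with the groups of rats. For the 14 endothelial markers in the table (summed level 534 to 741 CPM in non-addicted, 690 to 864 in MA12 and 798 to 900 in MA24 rats), 2 of 14 were called lower in non-addicted than in MA12 rats, 3 of 14 lower than in MA24 rats, and 0 differed between MA24 and MA12. For the 15 mural and fibroblast markers (241 to 299, 301 to 478 and 290 to 352 CPM, *Col1a2* at 0 in every library), 2 of 14 tested were called lower in MA24 than in MA12 and 3 of 14 lower in non-addicted than in MA12 rats. For the 12 ependymal and choroid plexus markers (51.4 to 124, 33.9 to 87.1 and 35.8 to 57.5 CPM, none at 0 in every library), 2 of 10 tested were called higher in non-addicted than in MA24 rats. For the 11 oligodendrocyte markers (12747 to 18787, 13353 to 23511 and 19650 to 23046 CPM, none at 0), 0 were called, but 0 of 11 had a log2FC above 0 in non-addicted vs. MA12 (median -0.19) or in non-addicted vs. MA24 (median -0.34), where 1 had an adjusted p below 0.05 in edgeR, and the summed levels of non-addicted and MA24 rats did not overlap. For the 16 microglia and macrophage markers (465 to 614, 559 to 627 and 581 to 707 CPM, none at 0), no gene was called in any comparison. In each of the other 6 marker lists, at most 1 gene was called in any comparison. Within MA12, striatal projection neuron markers summed to 16527 and 17125 CPM in rats 21 and 31. In rats 4N and 7N they summed to 20482 and 20909 CPM. Ependymal and choroid plexus markers went the other way, at 68.5 and 87.1 CPM, then 33.9 and 40.6 CPM. The endothelial, mural and fibroblast, and microglia and macrophage sums did not divide the MA12 rats in this way. The part of these marker differences in the results below was not tested.

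**Figure D1:**
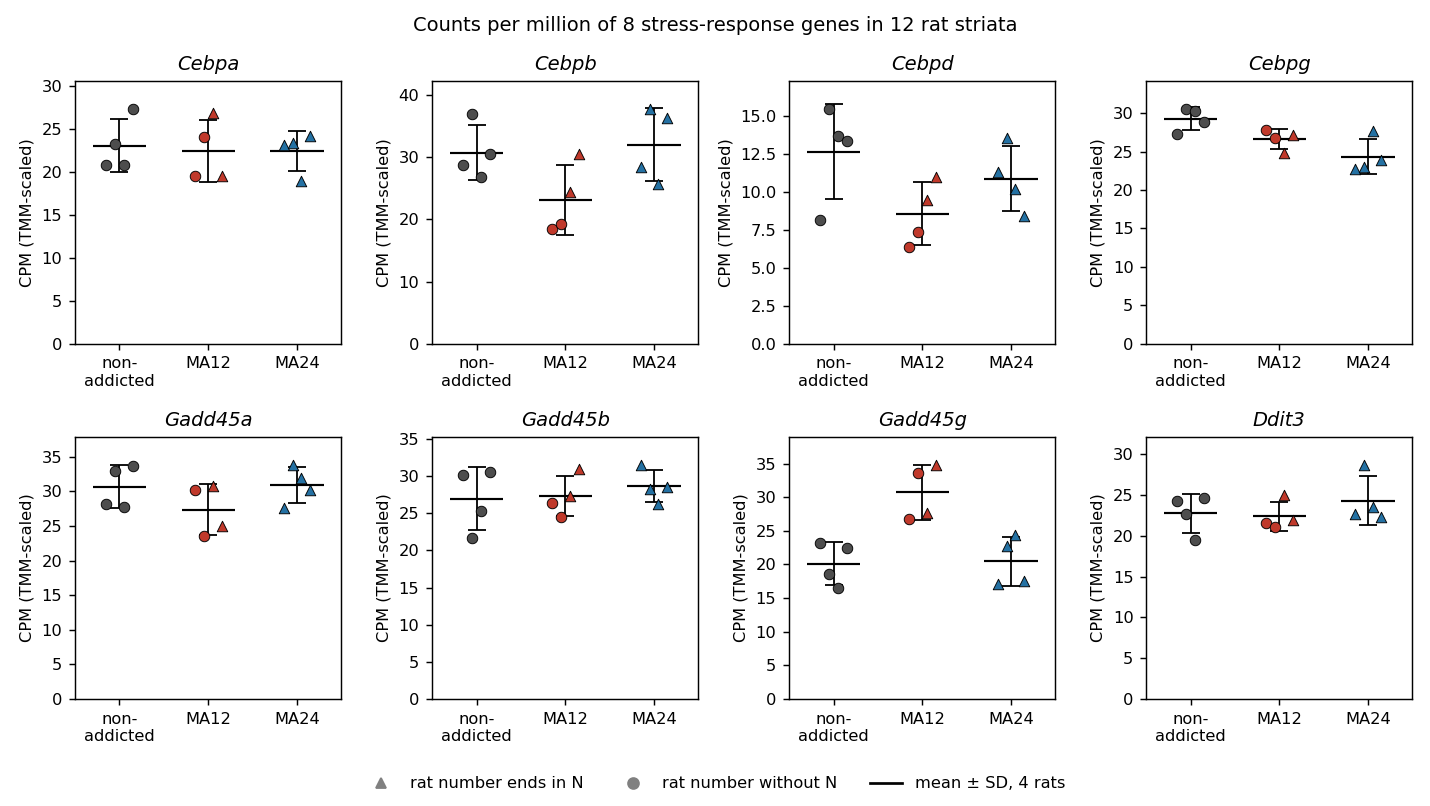
CPM (TMM-scaled, vertical axes from 0) of the 8 genes in the 12 striata, by group. Each point is 1 rat, triangles mark rats whose number ends in N, and the line with bars is the mean ± SD of 4 rats. The 4 MA12 rats lie above all other rats for *Gadd45g*, at 26.8 CPM or more against 24.5 or less, and the groups overlap for the other 7 genes.

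*Gadd45g*, the GADD45 member also known as a brake on cell growth, was the 1 gene of the 8 that was called between MA24 and MA12. Its level in the MA12 rats was 26.8, 33.6, 27.7 and 34.8 CPM (rats 21, 31, 4N and 7N), in the MA24 rats 17.1, 22.7, 24.5 and 17.6 CPM (rats 9N, 14N, 15N and 16N), and in the non-addicted rats 23.1, 18.5, 16.4 and 22.4 CPM (rats 9, 11, 12 and 13). Every MA12 rat was above every other rat, and the MA24 and non-addicted rats covered the same range. The means were 30.7 ± 4.05 CPM in MA12, 20.4 ± 3.68 in MA24 and 20.1 ± 3.18 in non-addicted rats (SD, n = 4 rats each). *Gadd45g* fell from MA12 to MA24 by 0.59 on the log2 scale (SE 0.14, 95% interval -0.87 to -0.30, a ratio of 0.666) (edgeR, quasi-likelihood test, adjusted p = 0.0202). The call asked for an adjusted p below 0.05 and a fold change of at least 1.5. The size of this change lay just past the fold limit, which is 0.585 on the log2 scale. The filter on low variance behind this call replaced a first reading of that filter after the results were seen. With the first reading, the log2FC was -0.56 (adjusted p = 0.0326, edgeR) and *Gadd45g* was not called. The share of all 10754 tested genes that met both limits was 2.45%, and 15.6% had groups that did not overlap, so the separation alone was not rare in this comparison.

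Compared with MA12, the non-addicted rats had a *Gadd45g* level of similar size to that of MA24. The log2FC was -0.61 (SE 0.13, 95% interval -0.89 to -0.33), with groups that did not overlap, and the adjusted p of 0.0557 in edgeR missed the limit. With DESeq2 the same contrast was called (log2FC -0.60, adjusted p = 0.00787), as it was in edgeR without non-addicted rat 13 (-0.65, adjusted p = 0.0346). It was not called in the other 14 of 16 alternative settings, where the adjusted p reached 0.180 (without non-addicted rat 12, edgeR). Between non-addicted and MA24 rats, the log2FC was -0.03 (SE 0.15, 95% interval -0.34 to 0.28, adjusted p = 0.942 in edgeR). The interval still holds modest differences in either direction, so equal levels were not shown. Both contrasts with MA12 use the same 4 MA12 rats and are not independent of each other.

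Counting error was smaller than the spread between rats. The counts of *Gadd45g* ran from 333 to 803 reads, and counting error alone would give a spread of 3.89% between MA12 rats where 13.2% was observed. Within the kinds of rat number, the 2 MA12 and 4 MA24 rats numbered with N differed by a log2FC of -0.60, with an adjusted p of 0.0673 in edgeR, and the 2 MA12 and 4 non-addicted rats without N by -0.57 (adjusted p = 0.0989, edgeR). Neither of these passed, each rests on 2 MA12 rats, and with the kind of number as a covariate MA24 vs. MA12 gave -0.62 (adjusted p = 0.0992, edgeR). The part of the kind of number in the *Gadd45g* difference was not tested further. No MA24 rat has a number without N and no non-addicted rat has one with N.

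The other GADD45 genes did not pass. *Gadd45a*, the classical p53 target of the family, stood at 30.2, 23.5, 30.7 and 24.9 CPM in the MA12 rats and at 27.6, 33.8, 31.9 and 30.2 CPM in the MA24 rats, with the non-addicted rats between 27.8 and 33.7 CPM. The groups overlapped, and the log2FC of MA24 vs. MA12 was 0.18 (SE 0.12, 95% interval -0.07 to 0.42, adjusted p = 0.373, edgeR). *Gadd45b*, an immediate-early gene of neurons, stood at 26.4, 24.5, 27.4 and 30.9 CPM in MA12 and at 31.5, 28.3, 26.3 and 28.5 CPM in MA24, with 21.7 to 30.6 CPM in non-addicted rats. Its log2FC of MA24 vs. MA12 was 0.07 (SE 0.11, 95% interval -0.16 to 0.31, adjusted p = 0.735, edgeR). Against MA12, the non-addicted rats had log2FC values of 0.16 for *Gadd45a* (adjusted p = 0.634, edgeR) and -0.02 for *Gadd45b* (adjusted p = 0.967, edgeR). Neither interval of MA24 vs. MA12 reached the fold limit in either direction. Whether *Gadd45g* moved differently from its paralogues was not tested.

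Among the C/EBP genes, *Cebpb* had the largest difference between MA24 and MA12, and it did not pass. In the MA12 rats its level was 18.4, 19.3, 24.4 and 30.6 CPM (rats 21, 31, 4N and 7N), in the MA24 rats 28.4, 37.8, 25.8 and 36.3 CPM (rats 9N, 14N, 15N and 16N), and in the non-addicted rats 28.7, 37.0, 26.8 and 30.6 CPM (rats 9, 11, 12 and 13). MA12 rats 21, 31 and 4N lay below all rats of the other groups, and MA12 rat 7N lay among them. The log2FC was 0.47 for MA24 vs. MA12 (SE 0.16, 95% interval 0.14 to 0.80, unadjusted p = 0.00740, adjusted p = 0.0832, edgeR) and 0.41 for non-addicted vs. MA12 (SE 0.15, adjusted p = 0.264, edgeR). Between non-addicted and MA24 rats it was -0.06 (SE 0.14, 95% interval -0.35 to 0.22, adjusted p = 0.826, edgeR).

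The *Cebpb* result changed when MA12 rat 7N was left out and within the kinds of rat number. Rat 7N is itself numbered with N, so these are not separate, and the part of the kind of number was not tested further. Without rat 7N, *Cebpb* was called in MA24 vs. MA12 (log2FC 0.64, adjusted p = 0.0167, edgeR) and in non-addicted vs. MA12 (0.59, adjusted p = 0.0437, edgeR). Both MA12 rats numbered with N were above both without it, as they were for the summed striatal projection neuron markers. The part of those markers was not tested. Among rats numbered with N, the log2FC of MA24 vs. MA12 was 0.23 (adjusted p = 0.548, edgeR), less than the pooled value, and with the kind of number as a covariate it was 0.22 (adjusted p = 0.549, edgeR). Among rats numbered without N, non-addicted rats exceeded MA12 by a log2FC of 0.72 (adjusted p = 0.0260, edgeR), which passed both limits with 2 MA12 rats in the fit.

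*Cebpd*, the C/EBP gene induced by glucocorticoids and cytokines, followed the same order of rats within MA12. Its level was 6.40, 7.35, 9.50 and 11.0 CPM in MA12 rats 21, 31, 4N and 7N, with 8.44 to 13.6 CPM in the MA24 rats. The non-addicted rats stood at 8.18, 15.5, 13.7 and 13.4 CPM, with rat 9 apart below the other 3. The log2FC was 0.57 for non-addicted vs. MA12 (SE 0.20, 95% interval 0.14 to 0.99, unadjusted p = 0.0117, adjusted p = 0.249, edgeR) and 0.35 for MA24 vs. MA12 (SE 0.20, 95% interval -0.06 to 0.76, adjusted p = 0.279, edgeR). *Cebpd* had the lowest counts of the 8 genes, from 152 to 334 reads, and counting error alone would give a spread of 7.43% between MA12 rats where 24.3% was observed. As with *Cebpb*, the difference was smaller among rats numbered with N (0.10 for MA24 vs. MA12, adjusted p = 0.856, edgeR) and larger among those without N (0.90 for non-addicted vs. MA12, adjusted p = 0.0646, edgeR). For non-addicted vs. MA24, the log2FC was 0.21 (SE 0.19, adjusted p = 0.562, edgeR).

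*Cebpg* varied least of the 8 genes among the non-addicted and among the MA12 rats. Its level was 27.3 to 30.5 CPM in non-addicted, 24.8 to 27.8 in MA12 and 22.8 to 27.6 in MA24 rats, with MA24 rat 15N apart above the other 3. Its spread in MA12, 4.86%, was close to the 4.16% that counting error gives. The log2FC was 0.26 for non-addicted vs. MA24 (SE 0.11, 95% interval 0.03 to 0.50, unadjusted p = 0.0274), and the adjusted p of 0.235 in edgeR did not pass. It was -0.13 for MA24 vs. MA12 (SE 0.11, adjusted p = 0.489, edgeR). For non-addicted vs. MA12, *Cebpg* was among the 15% of genes removed for their low variance, and a fit without that filter gave 0.13 (SE 0.08, adjusted p = 0.592, edgeR).

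*Cebpa*, its neighbour, showed no order of the groups. Its level ran from 20.7 to 27.3 CPM in non-addicted, from 19.5 to 26.8 in MA12 and from 19.0 to 24.1 in MA24 rats. The log2FC of MA24 vs. MA12 was 0.00 (SE 0.13, 95% interval -0.28 to 0.27, adjusted p = 0.991, edgeR), and those of the other comparisons were 0.03 and 0.04 (adjusted p = 0.955 and 0.904, edgeR). The interval of MA24 vs. MA12 holds no change of 1.5-fold or more, and smaller changes in either direction lie within it.

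*Ddit3* (CHOP), the marker gene of endoplasmic reticulum stress among the 8, had groups that overlapped in every comparison. The MA12 rats stood between 21.1 and 25.0 CPM, the MA24 rats at 22.7, 28.7, 23.5 and 22.3 CPM, and the non-addicted rats between 19.4 and 24.6 CPM. MA24 rat 14N was the highest of the 12 and the other 11 shared 1 range. The log2FC was 0.12 for MA24 vs. MA12 (SE 0.12, 95% interval -0.13 to 0.37, adjusted p = 0.573, edgeR), 0.02 for non-addicted vs. MA12 (adjusted p = 0.973, edgeR) and -0.10 for non-addicted vs. MA24 (adjusted p = 0.691, edgeR).

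**Figure D2:**
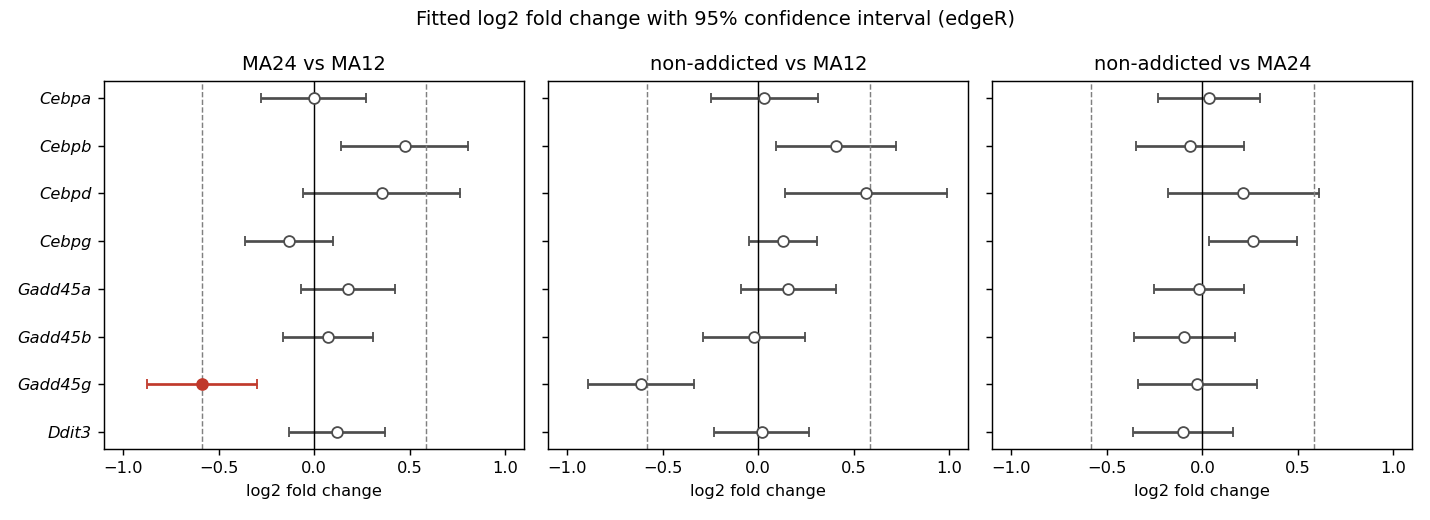
Fitted log2 fold change of the 8 genes (horizontal axis) in MA24 vs. MA12, non-addicted vs. MA12 and non-addicted vs. MA24, with 95% confidence intervals from edgeR, unadjusted for the number of genes. Dashed lines mark a 1.5-fold change, and the filled red point marks an adjusted p below 0.05. *Gadd45g* in MA24 vs. MA12 (-0.59) is the filled point. The value of *Cebpg* in non-addicted vs. MA12 comes from the fit without the variance filter.

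Over all members, 1 of 8 was called in MA24 vs. MA12, against 2.45% of all genes tested, and the same 1 had an adjusted p below 0.05 at any fold change, against 5.16%. In non-addicted vs. MA12, 0 of the 7 genes tested were called in edgeR, against 0.251% of all genes (0.27% at any fold change), with 1 in DESeq2 and 3 (*Gadd45g*, *Cebpb* and *Cebpd*) at an unadjusted p below 0.05. The groups did not overlap for *Gadd45g* alone, against 7.1% of all genes. In non-addicted vs. MA24, 0 of 8 were called in edgeR and 0 in DESeq2, against 0.456% (0.549% at any fold change), with 1 (*Cebpg*) at an unadjusted p below 0.05. No member had groups that did not overlap there, against 10% of all genes. With 8 genes, counts of 0 or 1 cannot be read as above or below these shares. The median log2FC of the 8 was 0.10 in MA24 vs. MA12, 0.08 in non-addicted vs. MA12 and -0.02 in non-addicted vs. MA24, beside -0.02, -0.01 and 0.00 over all genes tested.

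**Figure D3:**
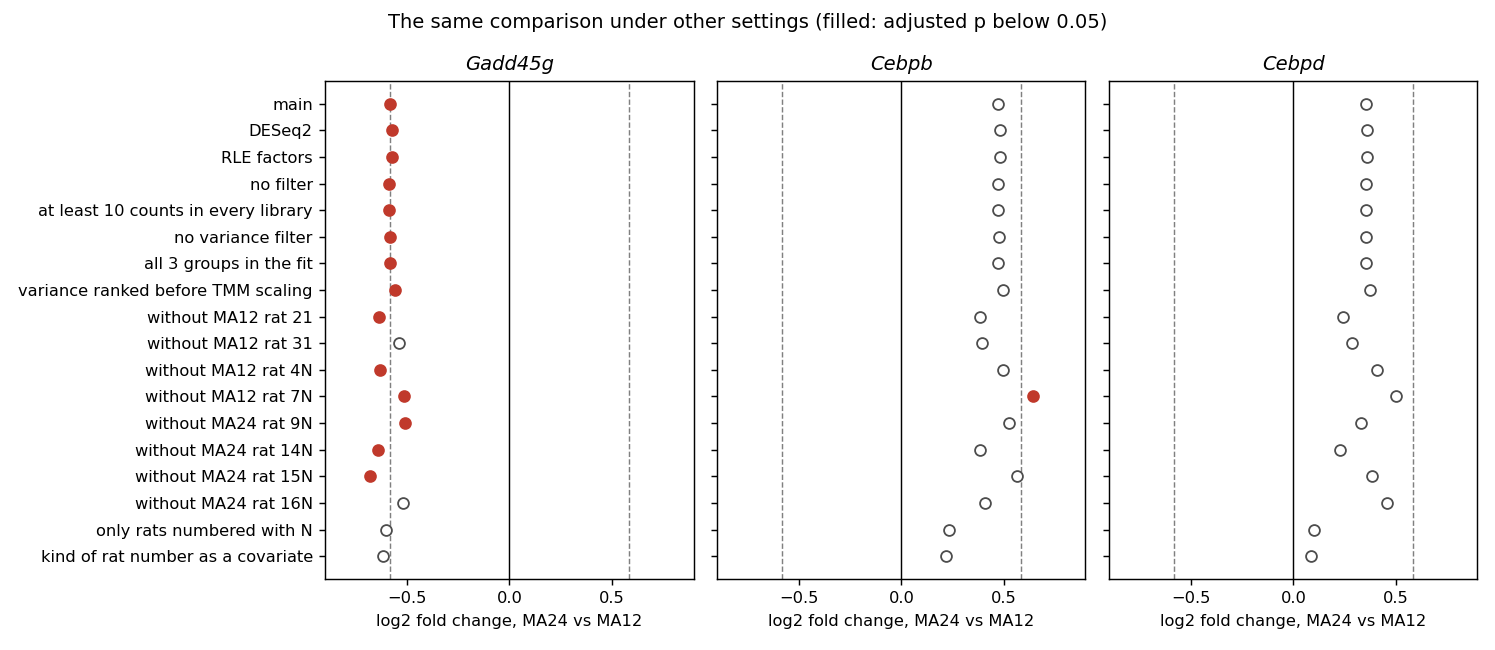
Log2 fold change of *Gadd45g*, *Cebpb* and *Cebpd* in MA24 vs. MA12 (horizontal axes) under the main setting and 17 others, 1 per line. Filled points have an adjusted p below 0.05, and dashed lines mark a 1.5-fold change. *Gadd45g* stays between -0.68 and -0.51 and moves across the fold limit, *Cebpb* is filled without MA12 rat 7N, and *Cebpd* is filled nowhere.

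Every MA12 rat was above every MA24 rat for *Gadd45g*, so leaving out rats could not turn the direction of its fall. In the 17 other settings, the log2FC of MA24 vs. MA12 lay between -0.68 and -0.51. The adjusted p stayed below 0.05 in 13 of them, and both limits were met in 8. With DESeq2, the log2FC was -0.58 and the adjusted p 0.00476, which missed the call by the fold limit alone. With variance ranked before TMM scaling, the first reading of the filter, it was -0.56 (adjusted p = 0.0326, edgeR) and missed the call by the same limit. The call was also lost without MA12 rat 31 (-0.54, adjusted p = 0.0526, edgeR), MA12 rat 7N (-0.51, 0.0407), MA24 rat 9N (-0.51, 0.0360) or MA24 rat 16N (-0.52, 0.0602).

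The genes around these families were described by lists of their partners, targets and inducers. In MA24 vs. MA12, 5 of 156 distinct listed genes tested were called, or 3.21%, against 2.45% of all genes. In non-addicted vs. MA12 it was 6 of 160 (3.75%), against 0.251% of all genes, and in non-addicted vs. MA24 0 of 158 in edgeR, against 0.456%. The lists hold clock genes, which make up 4 of the 6. Because the lists were chosen with earlier results of these data known, their shares cannot be read as an excess over all genes.

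The integrated stress and unfolded protein response, which induces *Ddit3*, had 0 of 28 genes called in MA24 vs. MA12, 0 of 30 in non-addicted vs. MA12 and 0 of 29 in non-addicted vs. MA24 (edgeR). The median log2FC of its genes was -0.12, 0.07 and 0.20 in that order, and 8 of 28, 20 of 30 and 24 of 29 were above 0. *Hspa5*, which encodes the endoplasmic reticulum chaperone BiP, was higher in non-addicted than in MA24 rats at an adjusted p of 0.0497 (edgeR) with a log2FC of 0.57, under the fold limit. Its level was 419 ± 93.8 CPM in non-addicted, 314 ± 47.0 in MA12 and 281 ± 29.8 in MA24 rats (SD, n = 4). The non-addicted rats ran from 369 to 560 CPM and the MA24 rats from 256 to 320. The adjusted p lay just under the limit, and how far it rests on single rats was not examined for this gene. *Hsp90b1*, another chaperone of that compartment, had a log2FC of 0.27 (adjusted p = 0.152, edgeR), and *Calr*, with the most counts of the list, had -0.05 in MA24 vs. MA12 (adjusted p = 0.811, edgeR).

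Of the p53 and DNA-damage response, which induces *Gadd45a*, 1 of 23 genes was called in MA24 vs. MA12. *Rrm2b*, which encodes a subunit of ribonucleotide reductase that supplies nucleotides for repair, fell by 0.71 on the log2 scale (SE 0.19, adjusted p = 0.0333, edgeR), from 9.32 ± 1.31 to 5.71 ± 0.83 CPM (SD, n = 4), and the groups did not overlap. *Cdkn1a*, which encodes the cell cycle inhibitor p21 that binds GADD45 proteins, had a log2FC of 0.41 (unadjusted p = 0.0192, not passing after adjustment in edgeR). In the other comparisons, 0 of 25 and 0 of 23 genes were called. *Plk2*, a p53 target with the most counts of the list, had -0.10 in non-addicted vs. MA12 (adjusted p = 0.777, edgeR).

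Of the partners of GADD45 proteins and the kinases downstream of them, 0 of 15, 0 of 17 and 0 of 18 genes were called in MA24 vs. MA12, non-addicted vs. MA12 and non-addicted vs. MA24 (edgeR). *Map3k4*, the kinase that GADD45 proteins bind, had a log2FC of -0.18 in MA24 vs. MA12 (adjusted p = 0.287, edgeR), and *Tdg*, the glycosylase that removes oxidised 5-methylcytosine, had -0.12 (adjusted p = 0.571, edgeR). *Mapk9*, which encodes JNK2, had -0.15 (adjusted p = 0.348, edgeR). The groups did not overlap for *Map3k4*, in which every MA24 rat was lower.

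Of the other bZIP factors related to C/EBP and CHOP, 1 of 10 was called in MA24 vs. MA12. It was *Dbp*, a PAR-type bZIP factor with a strong daily rhythm, which rose by a log2FC of 0.66 (SE 0.11, adjusted p = 0.00558, edgeR), from 528 ± 70.0 to 835 ± 83.5 CPM (SD, n = 4). *Atf3*, a stress-induced partner of CHOP, had a mean of 13.3 reads per library and could not be measured well (log2FC 0.34, adjusted p = 0.743, edgeR). In non-addicted vs. MA12 and in non-addicted vs. MA24, 0 of 8 and 0 of 9 were called.

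Inflammatory, metabolic and myeloid genes linked to C/EBP proteins did not pass either. The inflammatory list mixes upstream signalling genes, such as *Il6st* and *Stat3*, with targets, so it does not describe targets alone. Of the acute-phase and inflammatory genes linked to *Cebpb* and *Cebpd*, 0 of 24 were called in each of the 3 comparisons (edgeR), with medians of -0.13, 0.16 and 0.17. *Il6st*, which encodes the shared receptor chain of the interleukin-6 family, had a log2FC of -0.22 in MA24 vs. MA12 (adjusted p = 0.199, edgeR), and *Stat3* had -0.18 (adjusted p = 0.266, edgeR). Of the metabolic and myeloid genes linked to *Cebpa*, 0 of 10, 0 of 10 and 0 of 9 were called, and *Scd2*, a lipid desaturase gene with the most counts of the list, had 0.10 in MA24 vs. MA12 (adjusted p = 0.630, edgeR).

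Of the glucocorticoid-induced genes, a group that *Cebpd* is often counted in, 2 of 17 were called higher in non-addicted than in MA12 rats. *Zbtb16* rose by a log2FC of 1.90 (SE 0.26, adjusted p = 0.00292, edgeR), at 10.9 ± 4.79 against 2.92 ± 0.30 CPM, and *Mt1a*, a metallothionein gene, by 0.75 (SE 0.14, adjusted p = 0.0383, edgeR), at 31.8 ± 5.51 against 18.9 ± 3.47 CPM (SD, n = 4). In MA24 vs. MA12, 0 of 17 were called, and *Ddit4*, also an ATF4 target, had 0.37 (adjusted p = 0.0928, edgeR). In non-addicted vs. MA24, 0 of 18 were called.

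Of the neuronal activity-regulated genes, a class that holds *Gadd45b* and *Gadd45g*, 0 of 23, 0 of 24 and 0 of 24 were called in MA24 vs. MA12, non-addicted vs. MA12 and non-addicted vs. MA24 (edgeR). *Homer1*, a postsynaptic scaffold gene, was lower in MA24 than in MA12 at an adjusted p of 0.0350 (edgeR), with a log2FC of -0.38 under the fold limit. *Junb* and *Arc*, an immediate-early transcription factor gene and a synaptic immediate-early gene, had -0.08 and -0.21 (adjusted p = 0.845 and 0.671, edgeR). In MA24 vs. MA12, 4 of 23 genes of this class were above 0.

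Clock genes formed the last list, which *Dbp* belongs to as well. In MA24 vs. MA12, 3 of 15 were called higher and 1 lower, and 9 of 15 had a log2FC above 0. *Ciart* (log2FC 0.98), *Per2* (0.96) and *Dbp* (0.66) rose, and *Arntl* fell (-0.61), with adjusted p values of 0.00558, 0.0141, 0.00558 and 0.00605 (edgeR). In non-addicted vs. MA12, 3 of 14 were called higher and 1 lower, and 11 of 14 had a log2FC above 0. Those called were *Per2* at 1.04, *Per3* at 0.64, *Ciart* at 0.997 and *Arntl* at -0.60 (adjusted p = 0.0128, 0.0225, 0.0283 and 0.0132, edgeR). *Arntl*, which encodes a core factor that binds E-boxes, stood at 57.0 ± 5.61 CPM in MA12, 37.2 ± 3.39 in MA24 and 37.8 ± 1.75 in non-addicted rats (SD, n = 4), and like *Gadd45g* it was higher in every MA12 rat than in any MA24 or non-addicted rat. In non-addicted vs. MA24, 0 of 12 clock genes were called (edgeR). A link between the clock genes and *Gadd45g* was not tested, and for both the time of day at sampling cannot be told apart from the hours of abstinence.

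**Figure D4:**
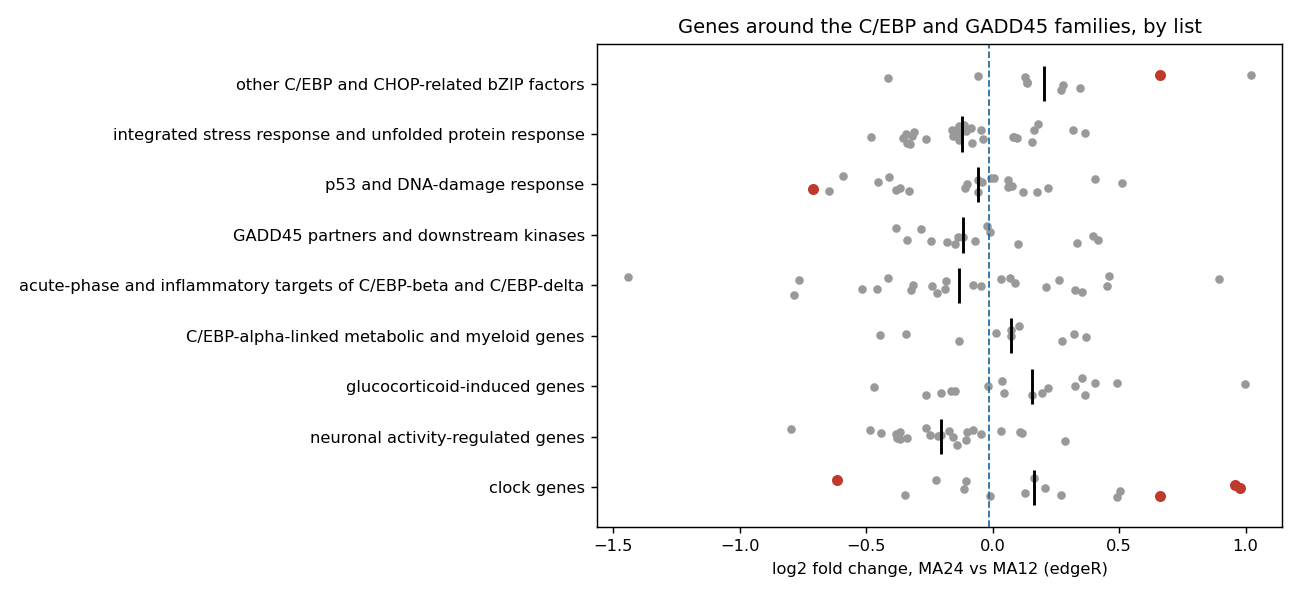
Log2 fold change in MA24 vs. MA12 (horizontal axis, edgeR) of the genes in 9 lists around the C/EBP and GADD45 families. Each point is 1 gene, red points passed both limits, black bars are list medians, and the dashed line is the median of all 10754 genes tested (-0.02). The 0 red points among the 28 stress response genes stand beside 4 among the 15 clock genes.

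Across the 12 rats, the 8 genes did not vary as 1 group. The highest Pearson r of log2 CPM among the 28 pairs was 0.70 for *Cebpb* and *Cebpd* (Spearman's rho 0.62), and it was 0.57 after the mean of each group was removed and 0.33 without the 2 rats farthest from the median of *Cebpb*. For *Gadd45a* and *Ddit3*, r was 0.61 (rho 0.69), 0.60 after centring and 0.60 without the 2 farthest rats. *Gadd45g* had r of -0.42 with *Gadd45a* and 0.07 with *Gadd45b*, and after centring 0.00 and 0.22. These values describe 12 libraries that share scaling, and *Cebpb* against *Cebpd* rests in part on MA12 rats 21 and 31, both low in both genes.

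The genes most like each member over the 12 rats were sought among 10765 genes with a mean count of at least 50. For *Gadd45g* they were *Prmt3* (r = 0.90), *Dars* (0.86) and *Eapp* (0.83), with 0.81, 0.64 and 0.61 after centring on the groups. For *Cebpb* they were *Col11a2* (0.96), *Pelp1* (0.95) and *Slc3a2* (0.94), and for *Cebpd* *Ppp1r15b* (0.95), *Nfkbia* (0.91) and *Phf7* (0.91). *Slc3a2* encodes an amino acid transporter chain, *Ppp1r15b* a regulatory subunit of the phosphatase that acts on eIF2α, and *Nfkbia* the inhibitor of NF-κB. For *Cebpg* they included *Bbs1* (0.92) and *Klhl24* (0.90), and for *Cebpa* they were *Tmem97* (0.82), *Lhx2* (0.78) and *Arhgap11a* (0.78). For *Gadd45a* they included *Enthd2* (0.80) and *Scn3b* (0.80), for *Gadd45b* *Thy1* (0.88) and *Larp6* (0.88), and for *Ddit3* they were *Gatc* (0.89), *Prdx4* (0.88) and *Sbds* (0.88). No other member was among the 3 most alike of any member. The highest of 10765 values over 12 rats is high by selection alone, so these names are descriptions.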

How the data were processed

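Total RNA was extracted from the striatum with TRIzol and made into poly-A libraries with a TruSeq kit. Per the labels and the methods, the authors used Cutadapt 1.18 for trimming, STAR 2.7.0e for alignment to rn6 and featureCounts for counting per gene, and the processing notes also list HTSeq 0.12.4. The deposited values are raw counts, whole numbers without normalization. How strand and multi-mapped reads were handled is not given in the sources used here, so counts of overlapping genes are uncertain. All 12 columns were mapped to rats by their labels, and 0 columns were left unused. Among the 18 pairs of rats within a group, no pair matched within sampling noise (chi-square over its degrees of freedom at least 9.72).

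The counts were tested in R 4.3.3 with edgeR 4.0.16. Each comparison used its own 8 libraries. Genes with mean counts over 4 entered, libraries were scaled by TMM, the 15% of genes varying least in log2 CPM (prior count 2) were dropped, and the rest were scaled again and tested with glmQLFit and glmQLFTest, with Benjamini-Hochberg adjustment over all genes tested. A gene was called at an adjusted p below 0.05 and a fold change of at least 1.5. Also tried were DESeq2 1.42.0, RLE scaling, no filter on low counts, a minimum of 10 counts in every library, no variance filter, a fit of all 3 groups, leaving out single rats, and restriction to or adjustment for the kind of rat number. Ranking the variance before scaling was the first reading of the filter. It was replaced after the results were seen, and is given as an added alternative. In MA24 vs. MA12 it called 215 genes, *Gadd45g* not among them, where the filter used here called 264. The fit was checked on simulated counts.

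All 8 members are named with their values. From each list, called genes (at most 4 per comparison) and, where none was called, the 2 with the highest mean count could be named, and for each member the 3 genes with the highest r, of which some are not reported here. *Cdkn1a*, *Map3k4*, *Tdg*, *Atf3* and *Homer1* were named after their values were seen. The members and lists were chosen with earlier results of these data known.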

Additional observations from a re-analysis of the deposited data

How the results depend on the processing

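Members called in MA24 vs. MA12 went from 1 to 0 with DESeq2, with RLE factors and with variance ranked before TMM scaling (*Gadd45g* log2FC -0.58, -0.58 and -0.56, adjusted p = 0.00476, 0.0233 and 0.0326, DESeq2 and edgeR), in each case by the fold limit. They were also 0 among rats numbered with N and with the kind of number as a covariate (-0.60 and -0.62, adjusted p = 0.0673 and 0.0992, edgeR). With 1 rat left out they ranged from 0 to 1, and the 1 without MA12 rat 7N was *Cebpb*, not *Gadd45g*. In non-addicted vs. MA12, members called went from 0 to 1 with DESeq2 (*Gadd45g*) and among rats numbered without N (*Cebpb*), and ranged from 0 to 1 with 1 rat left out. In non-addicted vs. MA24 they stayed at 0 in 15 of 15 alternatives.

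All genes called in MA24 vs. MA12 numbered 264, 116 among rats numbered with N, 47 with the covariate, and 129 (without MA24 rat 14N) to 436 (without MA24 rat 9N) with 1 rat left out. For non-addicted vs. MA12 they numbered 27, 75 with DESeq2, 12 with no filter, 4 when every library needed 10 counts or more, 5 without the variance filter, 11 with variance ranked before scaling, 63 among rats without N, and 8 to 93 with 1 rat left out. In non-addicted vs. MA24 they numbered 49, 126 with DESeq2, 10 with no filter, 16 with variance ranked before scaling, 0 to 187 with 1 rat left out, and 0 in edgeR when every library needed 10 counts or more, when the variance filter was dropped and when all 3 groups were fitted together (2146, 2229 and 2066 genes at an unadjusted p below 0.05). The cause of these moves was not tested.

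Signs turned only for members with small differences that did not pass. In MA24 vs. MA12, *Cebpa* was 0.0077 with DESeq2 and with RLE factors, 0.022 with variance ranked before scaling, and -0.058 to 0.092 with 1 rat left out. *Gadd45b* was -0.014 among rats with N and -0.029 with the covariate. For non-addicted vs. MA12, *Gadd45b* was 0.096 among rats without N and -0.075 to 0.073 with 1 rat left out, *Cebpa* -0.045 to 0.14 and *Ddit3* -0.014 to 0.089. In non-addicted vs. MA24, leaving out 1 rat gave -0.059 to 0.082 for *Cebpa*, -0.16 to 0.020 for *Cebpb*, -0.068 to 0.029 for *Gadd45a* and -0.10 to 0.072 for *Gadd45g*. The log2FC of *Cebpg* in non-addicted vs. MA12 could be had only where the variance filter kept it, in 8 alternatives. No paired analysis was possible because each rat gave 1 library and belonged to 1 group. Counting error alone gives a spread of 3.89% to 7.43% for the members, below the observed spread, though for *Cebpg* in MA12 rats (4.86% observed, 4.16% from counting) it was most of it.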
